A study of Mus musculus with 12 samples.

Results

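The 4 Hox clusters of the mouse hold 39 genes for homeodomain transcription factors, and their chromatin was followed here in 7 lists of ATAC-seq peaks from transformed mouse embryonic fibroblasts (MEFs). ATAC-seq marks open chromatin by the sites that the Tn5 transposase can reach. The members were all protein-coding genes named Hoxa, Hoxb, Hoxc or Hoxd with a number, 39 of 21851 protein-coding genes in the GENCODE annotation of the mm10 assembly. HoxA has 11 of them, HoxB 10, HoxC 9 and HoxD 9. Peaks of the 7 lists that touched were merged into loci, and a locus was called open in a list where that list had a peak. Of 147985 loci in all, 131 lay in the Hox windows, which are the cluster spans with 20 kb on either side, and 395 lay in the flanks, the next 500 kb on either side. HoxA spans chr6:52155590-52260880, HoxB chr11:96194316-96368256, HoxC chr15:102921103-103036852 and HoxD chr2:74668310-74765142.

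The cells were OG2 MEFs, which carry an Oct4-GFP reporter and were derived from E13.5 embryos, transformed with pairs of genes and passaged for at least a month. Hdac7SA.Mef2d cells carry the transcription factor Mef2d and a form of the histone deacetylase Hdac7 whose serines are replaced so that it is not exported from the nucleus. Hras.E1A cells carry oncogenic Hras with adenoviral E1A, and Hras.Myc cells carry Hras with Myc. Both Hras lines were also treated for 2 days with PD (PD0325901), which inhibits the kinase MEK, or with TSA (trichostatin A), which inhibits histone deacetylases. The 12 libraries were made from about 50000 cells each, with 2 libraries per group and 1 for each TSA group. Each group is represented by 1 pooled list, so there was no replicate error to compare with and no test was made. Shares carry exact 95% binomial intervals for counting error, in which each locus counts as an independent one even beside its neighbours. Wildtype MEFs were not analysed here. The depth behind the lists is not known, and reads below the calling threshold may lie where no peak was listed. In bulk cells, opening in fewer cells cannot be told apart from weaker opening in each cell.

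Hox proteins set the identity of segments along the body axis, and fibroblasts keep a Hox pattern that reflects where in the body they came from. Within a cluster the genes are ordered so that low-numbered (anterior) genes are used earlier and nearer the head than high-numbered (posterior) ones, and genes with the same number in different clusters are paralogs. Polycomb complexes hold silent Hox genes shut, trithorax complexes keep active ones open, retinoic acid acts on the anterior end, and gene-poor deserts beside HoxD and HoxA hold distant enhancers.

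The sequences below are shown because the loci that opened with PD in Hras.Myc often carried the letters TTTATNG, a form bound by posterior HOX proteins, where N is any base. Capitals mark these letters, the strand is that of the printed sequence, and all positions are on mm10. The first pair of sequences has the letters on both strands, back to back, each reading away from the other.
Hoxd4 upstream promoter, chr2:74721981-74722010, plus strand: gattcCAATAAActttgtTTTATGGcttga
Between Hoxb5 and Hoxb4, chr11:96307009-96307038, plus strand: gaggtCCATAAAgttagtTTTATGGttttg
Hoxc4 upstream promoter, chr15:103018843-103018869, plus strand: taaaccaagtTTTATGGtgtagggaga
Hoxa4 intron, chr6:52190958-52190984, plus strand: ggcaattaaaTTTATGGgggctataat
Hoxd3 intron, chr2:74734669-74734695, plus strand: atctttccggTTTATTGctctatgaac
Hoxb4 intron, chr11:96319976-96320002, minus strand: aagagaaagtTTTATTGcccccgaaag
Beside Mir615 in Hoxc5, chr15:103014612-103014638, minus strand: gatcgtaaaaTTTATGGccgcaggttt

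Most Hox promoters were open in every line and treatment. A promoter was called open where a peak lay within 1000 bp of a transcription start site (TSS) of the gene. Of the 39 promoters, 26 (66.7%) were open in all 7 lists, against 57.7% of all protein-coding genes. The number open was 31 in Hdac7SA.Mef2d, 33 in Hras.E1A, 32 with PD and 35 with TSA, and 34 in Hras.Myc, 31 with PD and 33 with TSA. These counts are 79.5% to 89.7% of the Hox genes, while 62.0% to 65.9% of all genes were open. The interval of Hdac7SA.Mef2d, 63.5 to 90.7, included the 65.9% of all genes in that list, and the intervals of the other lists lay above their shares. The totals lay within 4 of each other, although the promoters behind them differed. The counts rested on weak peaks, since without the lowest 25% of peaks by score 17 Hox promoters were open in Hdac7SA.Mef2d and 21 in Hras.E1A, and with all lists cut to the length of the shortest 6 and 17 were.

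The promoters open in all 7 lists were spread over anterior and posterior genes. In HoxA they included those of Hoxa3, Hoxa4, Hoxa5, Hoxa7, Hoxa9, Hoxa10 and Hoxa13. In HoxB they were those of Hoxb4, Hoxb6, Hoxb7, Hoxb9 and Hoxb13. In HoxC they were those of Hoxc4, Hoxc5, Hoxc6, Hoxc8, Hoxc10, Hoxc11 and Hoxc13, and in HoxD those of Hoxd1, Hoxd3, Hoxd8, Hoxd9, Hoxd10 and Hoxd13. By position in the cluster, 4 of 8 anterior genes (numbers 1 to 3), 11 of 15 middle genes (4 to 8) and 11 of 16 posterior genes (9 to 13) were open throughout. All 4 paralogs of number 13, the most posterior genes, which pattern the ends of the limbs and of the trunk, were open in all 7 lists. So were the 3 of number 10 and both of number 7. Neither paralog of number 2 nor of number 12 was. The promoters of Hoxb3 and Hoxd12 had no peak in any list. Hoxa3 was counted by its only coding start site, which lies between Hoxa6 and Hoxa7. The call was made per gene, and at Hoxb6 and Hoxc11 no single promoter locus was open in all 7 lists.

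**Figure D1:**
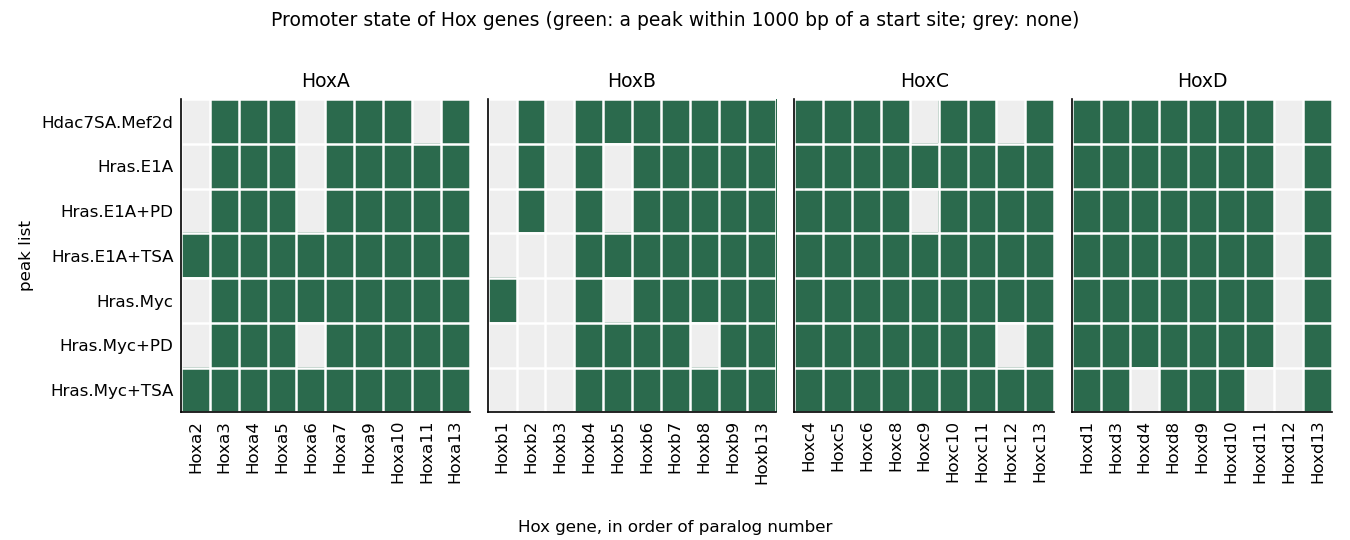
Promoter state of Hox genes (columns, in order of number within each cluster) in the 7 peak lists (rows). Green cells mark a peak within 1000 bp of a start site and grey cells none; most columns are green throughout, those of Hoxb3 and Hoxd12 are grey throughout, and 11 vary.

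The other 11 promoters differed between lists. The posterior genes Hoxa11, Hoxc9 and Hoxc12 lacked a peak in Hdac7SA.Mef2d, as did the anterior genes Hoxa2 and Hoxb1 and the middle gene Hoxa6. In that list 5 of 8 anterior, 14 of 15 middle and 12 of 16 posterior genes were open. The promoter of Hoxa11, which patterns the forearm and the kidney, was open in all 6 lists of the Hras lines and not in Hdac7SA.Mef2d. That of Hoxc12 was open in 5 of those 6, all but Hras.Myc with PD, and not in Hdac7SA.Mef2d. That of Hoxc9 was open in 5 as well, all but Hras.E1A with PD. Peaks were ranked within each list by the score they carry, so that percentile 100 is the strongest. The Hoxa11 peak ranked between percentile 7.08 and 36.0 of its lists.

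Among anterior genes, the hindbrain gene Hoxb2 had a peak in Hdac7SA.Mef2d and, with or without PD, in Hras.E1A, and none in Hras.E1A with TSA or in any Hras.Myc list. Its paralog Hoxa2, which patterns the second pharyngeal arch, was open with TSA in both Hras lines and in no other list. The TSA peaks at Hoxa2 lay on 2 different loci, ranking at percentile 9.45 in Hras.E1A and 1.60 in Hras.Myc. Hoxb1 had a peak in untreated Hras.Myc and in no other list. Hoxa2 and Hoxb2 both carried the letters TGATTNAT, to which HOX and PBX proteins bind together, as did the promoter of Hoxd11. The sequences are shown because all 3 of these promoters varied between lists, with the matched letters in capitals.
Hoxb2 promoter, chr11:96351905-96351932, minus strand: gtcgactcctTGATTGATgaagtttgaa
Hoxa2 promoter, chr6:52164925-52164952, plus strand: actgtctgttTGATTGATccaaaaaagt
Hoxd11 promoter, chr2:74682240-74682267, minus strand: caattcatctTGATTGATtctggtggta

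Among middle genes, Hoxa6 was open in both TSA lists and in untreated Hras.Myc. Hoxb5, which acts in neural crest and lung, was open in Hdac7SA.Mef2d, in both TSA lists and in Hras.Myc with PD, and in neither untreated Hras line. Hoxb8 lacked a peak in Hras.Myc with PD and had one in the other 6 lists. Hoxd4 and the posterior gene Hoxd11 lacked a peak in Hras.Myc with TSA and were open in the other 6. The single call for Hoxd4, like those for Hoxb6 and Hoxc11, hid a change of locus. A locus over its upstream start site was open in Hras.E1A, in Hras.E1A with PD and in Hras.Myc with PD. A locus over its downstream start site was open in Hdac7SA.Mef2d, Hras.E1A with PD, Hras.E1A with TSA and untreated Hras.Myc. In Hras.Myc, PD therefore exchanged the downstream peak (percentile 33.4) for the upstream one, which ranked at percentile 98.9. The upstream locus is the one with the back-to-back TTTATNG letters.

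Over the windows as a whole, 97 of the 131 loci were open in Hdac7SA.Mef2d, 99 in Hras.E1A, 95 with PD and 96 with TSA, and 87 in Hras.Myc, 91 with PD and 85 with TSA. Over all loci the same lists ranged from 118624 in Hdac7SA.Mef2d to 56242 in Hras.Myc with PD. With all lists cut to the length of the shortest, the open window loci ranged from 15 in Hdac7SA.Mef2d and 33 in Hras.E1A to 91 in Hras.Myc with PD. Of the window loci, 48 (36.6%) were open in all 7 lists, against 20.2% of all loci, and these were 13 in HoxA, 14 in HoxB, 11 in HoxC and 10 in HoxD. Promoter loci were 55 of the 131 window loci, against 17045 of all 147985. At distal loci 21 of 76 window loci were open in all 7 lists, against 17621 of 130940. At promoter loci the order was reversed, with a lower share in the windows than over all promoter loci. Another 16 window loci were open in 1 list each. The density was 20.1 loci per 100 kb in the windows, between 19.2 in HoxB and 22.0 in HoxA, against 9.88 in the flanks.

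**Figure D2:**
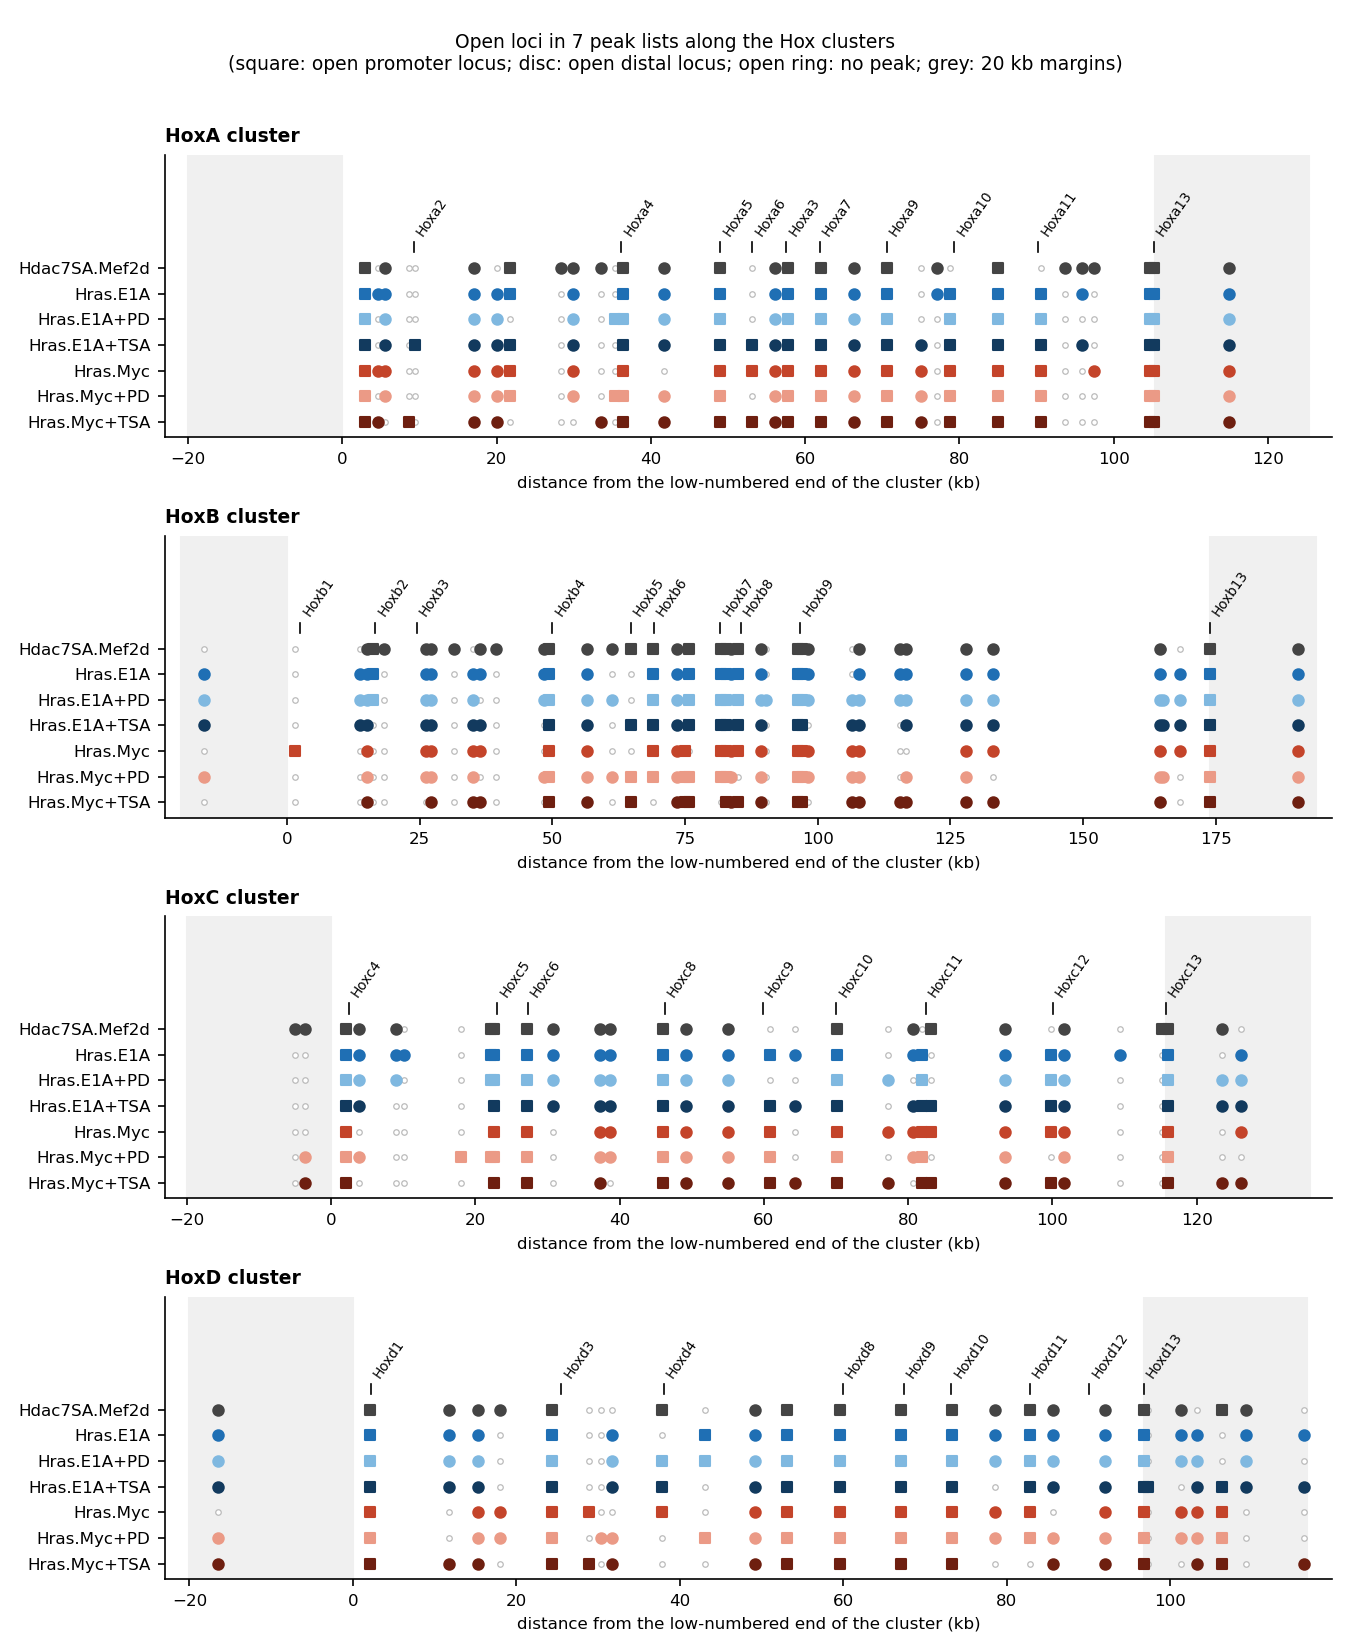
Loci along each cluster with its 20 kb margins (grey), at their distance in kb from the end of the cluster with the lowest-numbered gene, in the 7 peak lists. Filled squares are open promoter loci, filled discs open distal loci and small rings loci with no peak in that list; 48 of the 131 loci are filled in all 7 rows, and most of the gene starts marked above by name carry a filled square.

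The open loci of the clusters differed from other open loci in base composition and in rank. Their median GC content was 57.8%, against 48.0% in the flanks and 46.2% over all loci, and 70 of 131 (53.4%) were CpG-rich, against 9.63% over all loci. CpG-rich means a GC content of at least 50% and a ratio of observed to expected CpG of at least 0.6. At distal loci the median GC content was 54.1% in the windows, against 45.2%, and 39.5% were CpG-rich, against 2.04%. Promoter loci of the windows had 60.8%, against 63.2% for all promoter loci, and 72.7% were CpG-rich, against 67.9%. The peaks ranked low by score. In untreated Hras.E1A the median percentile of distal window loci was 16.0, against 50.8 for all distal loci, and in untreated Hras.Myc it was 19.3, against 50.4. Promoter loci of the windows had medians of 25.7 and 18.5 in these lists, against 48.3 and 50.0. The best-ranked loci open in all 7 lists were the promoter of Hoxc13 (median percentile 95.7), a distal locus 10761 bp from Hoxb9 (84.9) and the promoter of Hoxc10 (82.7).

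Untreated, the 3 lines shared most of the open Hox chromatin. Of the window loci, 64 (48.9%) were open in all 3 untreated lines, against 34.2% over all loci. At distal loci it was 32 of 76, against 37098 of 130940. At promoter loci the order was reversed, with a lower share in the windows than over all promoter loci. Loci open in Hdac7SA.Mef2d and in neither untreated Hras line numbered 12 (9.16%), against 34.1% of all loci. At distal loci this class held 10 of 76, against 49511 of 130940. HoxD had 0 of its 27 loci in this class. With all lists cut to the length of the shortest, the class held 0 window loci. That cut took the Hdac7SA.Mef2d list from 119251 to 56774 peaks and left 15 of its 97 window loci open. The value of 0 therefore cannot show how rare the class is. With the lowest-scoring peaks of each list removed instead, the class held 14 window loci. In the flanks of the lists as deposited, the class held 86 of 395 loci (21.8%), from 15.3% beside HoxC to 32.9% beside HoxA. The opposite class, open in both untreated Hras lines and not in Hdac7SA.Mef2d, held 11 window loci (8.40%), against 6.53% of all loci. These 11 included promoter loci of Hoxa10, Hoxa11, Hoxc9, Hoxc11 and Hoxc12, all of them posterior genes. The promoters of Hoxa10 and Hoxc11 were still open in Hdac7SA.Mef2d, through other loci. Hdac7SA.Mef2d and Hras.E1A shared 16 window loci (12.2%) that were not open in Hras.Myc, against 9.99% of all loci. Hdac7SA.Mef2d and Hras.Myc shared 5 (3.82%) that were not open in Hras.E1A, against 1.85%.

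Inside the cluster spans, 6 loci had a peak in Hdac7SA.Mef2d alone of the 7 lists, which is 5.26% of span loci, against 24.0% of all loci. They lay in HoxA at chr6:52183704-52184103, in an intron of Hoxa3, and at chr6:52249052-52249451, in an exon of Hoxa11os, the antisense RNA of Hoxa11. In HoxB they lay at chr11:96328704-96329103 and chr11:96336505-96336904, in Hoxb3 introns, and at chr11:96349739-96350138, 1493 bp from the Hoxb2 start. The HoxC locus, chr15:102921524-102921923, lay in the coding sequence of Hoxc13.

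With PD, few window loci closed. Closed means a peak in the untreated list and none in the treated list, and opened the reverse. In Hras.E1A, 12 of 99 loci closed with PD (12.1%, 95% interval 6.42 to 20.2), against 38.9% of all loci open in that line. In Hras.Myc, 14 of 87 closed (16.1%, 9.09 to 25.5), against 38.4%. Both intervals lay below the share over all loci. At promoter loci of the windows 2 of 41 closed in Hras.E1A and 7 of 44 (15.9%) in Hras.Myc, against 6.98% and 7.16% of all promoter loci, so the low shares were those of distal loci. There 10 of 58 (17.2%) closed in Hras.E1A, against 46.3%, and 7 of 43 (16.3%) in Hras.Myc, against 46.9%.

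Base composition and rank moved with this result. Among distal loci that were not CpG-rich, 6 of 33 window loci (18.2%, 6.98 to 35.5) closed in Hras.E1A, against 47.7% of all such loci. In Hras.Myc 6 of 22 closed (27.3%, 10.7 to 50.2), an interval that includes the 48.3% of all such loci. Among loci whose untreated peak was in the lowest 25% of scores, 12 of 57 window loci (21.1%, 11.4 to 33.9) closed in Hras.E1A, against 47.3%, and 11 of 52 (21.2%, 11.1 to 34.7) in Hras.Myc, against 46.7%. Among better-ranked loci, 0 of 42 (0 to 8.41) closed in Hras.E1A, against 36.1%, and 3 of 35 (8.57%, 1.80 to 23.1) in Hras.Myc, against 35.6%. When the lowest 25% of peaks were removed from every list, however, 42.9% of the window loci closed with PD in Hras.Myc, against 43.0% of all loci. In Hras.E1A the share was then 23.8%, against 42.9%.

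With PD, window loci opened more often than loci at large in Hras.Myc. There 18 of 44 loci that were not open untreated gained a peak (40.9%, 26.3 to 56.8), against 18.4% of all loci. In Hras.E1A it was 8 of 32 (25.0%, 11.5 to 43.4), against 14.9%, and the interval included the share over all loci. Distal loci gave 12 of 33 (36.4%) in Hras.Myc, against 18.2%, and 6 of 18 in Hras.E1A, against 14.5%. The loci that could open included those with a peak in Hdac7SA.Mef2d alone of the 7 lists. Such loci could not count as opened, so they lower each share opened. They were 7 of the 131 window loci (5.34%) and 41 of the 395 flank loci (10.4%), against 24.0% of all loci. The part of this difference in the shares opened with PD or TSA, in windows and flanks, was not tested. The loci opened in Hras.Myc were 7 of 14 in HoxB, 5 of 9 in HoxD, 4 of 12 in HoxC and 2 of 9 in HoxA. By nearest gene, 11 of 18 were near middle genes, against 4 of 12 near anterior and 3 of 14 near posterior genes. Opened peaks were weak in Hras.E1A, where all 8 ranked in the lowest 25% of the treated list, as did 10 of the 18 in Hras.Myc.

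**Figure D3:**
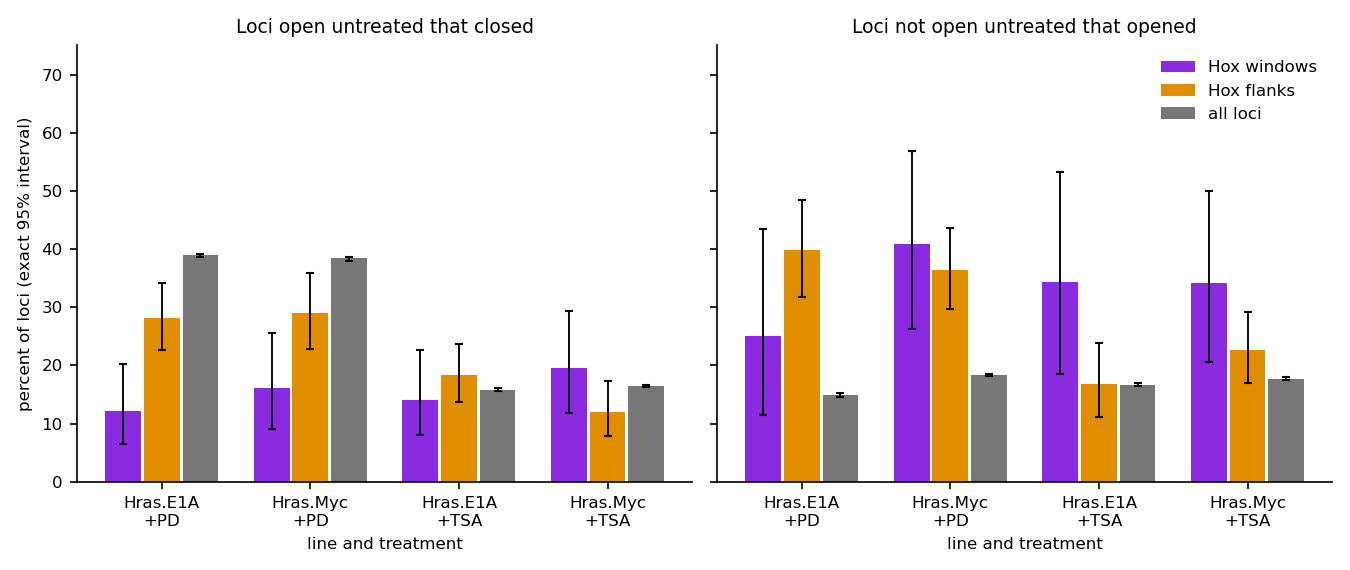
Percent of loci that closed (left, of loci open untreated) and opened (right, of loci not open untreated) with PD or TSA in each Hras line, for Hox windows, Hox flanks and all loci, with exact 95% intervals for counting error. With PD the window bars for closed loci, 12.1% and 16.1%, stand below those for all loci, 38.9% and 38.4%, while window and flank bars for opened loci stand above.

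Few window loci changed with PD in the same way in both Hras lines. The loci closed in both numbered 2 (1.53%), against 9.93% of all loci. They were chr6:52160013-52160412, in an intron of the HoxA non-coding RNA Hotairm1, and chr11:96331777-96332176, in an intron of Hoxb3. Both were weak peaks, at percentile 1.14 and 6.18 in untreated Hras.E1A. The Hotairm1 locus carried the letters TGANTCA, bound by AP-1, the family of factors that includes Fos and Jun, and it is shown for that reason.
Hotairm1 intron, chr6:52160282-52160308, plus strand: gggactcctgTGAGTCAggaacaggaa

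The window loci opened with PD in both lines numbered 3 (2.29%), against 2.74% of all loci. The first, chr6:52190725-52191124, lay in the intron of Hoxa4, 629 bp from a start site, and had no peak in the other 5 lists. The second, chr11:96202967-96203366, lay 8651 bp from Hoxb13 and was also open in Hras.E1A with TSA. The third, chr11:96306861-96307260, lay between Hoxb5 and Hoxb4, 3349 bp from the Hoxb5 start, and was also open in Hdac7SA.Mef2d. The third had no peak in untreated Hras.Myc and ranked at percentile 56.2 with PD, and it ranked at percentile 6.85 in Hras.E1A with PD and 4.50 in Hdac7SA.Mef2d.

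The letters TTTATNG were common in the loci that opened. They were searched for on either strand of the middle 200 bp of a locus, together with 5 other motifs, and were singled out after all 6 had been seen. Of the window loci, 20 (15.3%) held them, against 10.4% of all loci. Of the window loci opened with PD, 4 of 8 in Hras.E1A and 9 of 18 in Hras.Myc held them (50.0% each), against 19.0% and 18.0% of all opened loci. Counted the other way, 9 of 13 window loci with the letters opened in Hras.Myc (69.2%, 38.6 to 90.9) and 9 of 31 without them (29.0%, 14.2 to 48.0). In Hras.E1A it was 4 of 7 (57.1%, 18.4 to 90.1) and 4 of 25 (16.0%, 4.54 to 36.1). The same order was seen in the flanks of Hras.Myc, with 21 of 37 (56.8%) and 50 of 158 (31.6%), and over all loci, with 24.2% and 17.4%. The intervals of the window shares overlapped, and the difference was not tested. Flank loci with the letters had a lower median GC content than those without in both lines, 42.5% against 47.2% in Hras.Myc and 41.5% against 46.5% in Hras.E1A. In the windows it was lower in Hras.E1A (49.8% against 52.5%) and higher in Hras.Myc (50.2% against 48.5%). The part of base composition in the shares was not tested.

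**Figure D4:**
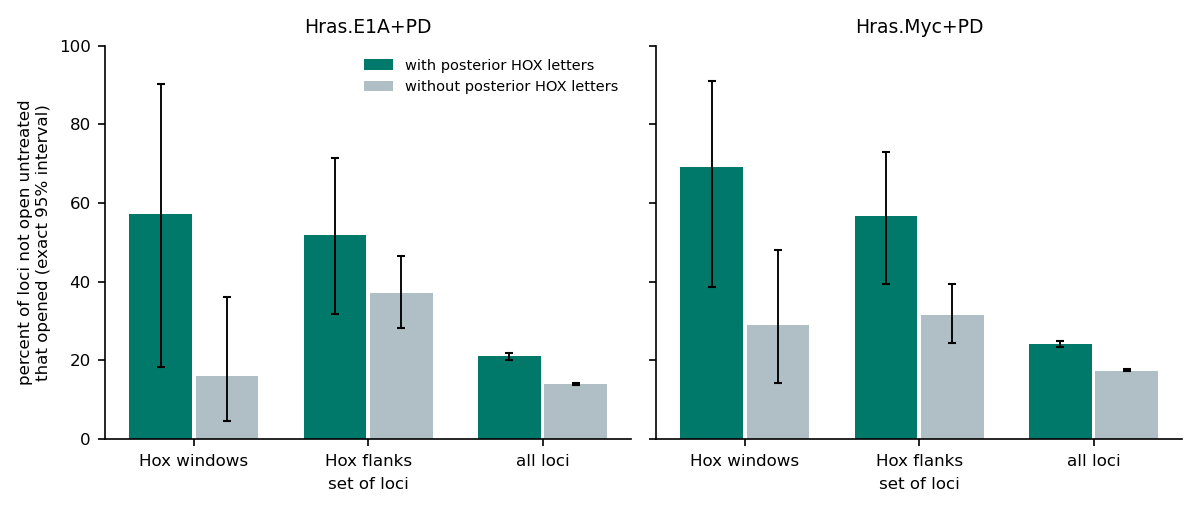
Percent of loci not open untreated that opened with PD, with and without the letters TTTATNG in the central 200 bp, in Hras.E1A (left) and Hras.Myc (right), for Hox windows, Hox flanks and all loci, with exact 95% intervals for counting error. The bar for loci with the letters is the higher one in every pair, from 69.2% against 29.0% in the windows of Hras.Myc to 21.0% against 13.9% over all loci of Hras.E1A.

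The 9 loci with the letters that opened in Hras.Myc lay in all 4 clusters, close to anterior and middle genes. The printed sequences above come from 7 of them, and the other 2 lay at the Hoxb6 promoter and in a Hoxc4 intron. The upstream promoter of Hoxc4 and the Hoxd3 intron had a peak in Hras.Myc with PD and in no other list, at percentiles 33.8 and 25.0. The Hoxb4 intron and the locus beside Mir615 were open in Hdac7SA.Mef2d, in Hras.E1A with and without PD, and in Hras.Myc with PD. Across these 9 loci the median percentile was 25.0. Back-to-back letters 6 bases apart, as at Hoxd4 and upstream of Hoxb4, occurred in 20 of all 147985 loci (0.0135%). They were in 2 of the 131 window loci (1.53%) and in 0 of the 395 flank loci. The HoxD and HoxB sequences are identical in 21 of 30 bases, and both loci opened with PD in Hras.Myc. This arrangement was chosen after its values had been seen.

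Of the other motifs, AP-1 and TEAD letters were less common in the windows than over all loci. AP-1 letters were in 8 window loci (6.11%), against 24.3% of flank loci and 29.2% of all loci. At distal loci, where AP-1 letters are mostly found, the shares were 9.21% and 32.2%. Letters of TEAD factors, the partners of Yap (GGAATG), were in 10 (7.63%), against 18.9%. Outside the windows, TEAD letters too were more common in loci opened with PD. They were in 13 of 57 opened flank loci in Hras.E1A and 21 of 71 in Hras.Myc, against 18.5% of flank loci. Over all loci they were in 27.2% and 26.3% of those opened. In the windows they were in 1 of 8 and 2 of 18. The CTCF core was in 0 of 131 (interval up to 2.78), against 3.54% of flank loci and 2.98% of all loci. At distal loci it was in 0 of 76 (interval up to 4.74), which includes the 3.23% of all distal loci. HOX-PBX letters were in 8 (6.11%), against 6.39%. A match of letters is not a bound site, and a lack of matches says only that these letters were not in the central 200 bp.

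The retinoic acid response element of the DR5 type, a pair of short repeats 5 bases apart, was found in 1 window locus (0.763%), against 0.103% of all loci, and in 2 flank loci. The window locus lay in an intron of Hoxa3, in the part of HoxA between Hoxa2 and Hoxa4. It was open in all 6 lists of the Hras lines, at percentiles from 3.76 to 9.15, and not in Hdac7SA.Mef2d. The flank locus beside HoxD had peaks in the Hdac7SA.Mef2d list and in that of Hras.Myc with PD. The one beside HoxC had peaks in the lists of Hdac7SA.Mef2d, Hras.E1A and Hras.E1A with PD. The repeats are in capitals.
Hoxa3 intron, chr6:52175527-52175555, minus strand: aatctcGGTTCAagaagAGTTCAcaagcc
HoxD flank, chr2:74959994-74960022, plus strand: cctgcaGGTTCAaaatgAGTTCAagtgtg
HoxC flank, chr15:103061708-103061736, plus strand: aatcttGGTTCAccgagAGTTCAcacggc

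With TSA, the shares of window loci that closed lay near those of all loci, and the shares that opened were higher in the lists as deposited. In Hras.E1A, 14 of 99 loci closed (14.1%, 7.95 to 22.6), against 15.8%, and in Hras.Myc 17 of 87 (19.5%, 11.8 to 29.4), against 16.4%. The intervals included the share over all loci in both lines. Of the distal window loci 19.0% and 25.6% closed, against 18.5% in Hras.E1A and 19.0% in Hras.Myc over all distal loci. In Hras.E1A 11 of 32 loci opened (34.4%, 18.6 to 53.2), against 16.7%, and in Hras.Myc 15 of 44 (34.1%, 20.5 to 49.9), against 17.7%. With all lists cut to equal length the shares opened were 21.1% (12.5 to 31.9) in Hras.E1A, against 17.8%, and 23.3% (13.4 to 36.0) in Hras.Myc, against 19.4%. Without the lowest 25% of peaks they were 26.2% (13.9 to 42.0), against 17.1%, and 28.6% (16.6 to 43.3), against 17.9%. These 4 intervals include the share over all loci. Of the distal window loci 22.2% and 36.4% opened, against 16.2% and 17.4% of all distal loci. At distal loci that were not CpG-rich, the window share opened in Hras.E1A was 7.69%, below the 16.1% of all such loci. Of the opened loci, 10 of 11 in Hras.E1A and 11 of 15 in Hras.Myc ranked in the lowest 25% of their list. The 2 loci opened with TSA in both lines (1.53%, against 1.37% of all loci) were the Hoxb5 promoter and chr15:102913141-102913540 beyond Hoxc13. The 3 closed in both (2.29%, against 1.07%) were chr2:74663569-74663968 between Evx2 and Hoxd13, chr2:74686368-74686767 near Hoxd11, and chr11:96269891-96270290 near Hoxb9. Each TSA list rests on 1 library, so these are differences between lists and not between conditions.

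The loci nearest to microRNA genes of the clusters varied more between lists than those nearest to long non-coding RNA genes. The nearest locus to the start of Haglr, Hotair, Hotairm1 and Hottip was open in all 7 lists, at 0, 4169, 1325 and 1749 bp. Only that of Haglr lay within the 1000 bp used for promoters, and it was also the Hoxd1 promoter locus. The Hottip locus was a Hoxa13 promoter locus. Distances and shared coding promoters thus differ between the RNA genes, and their part in this contrast was not tested. Mir10a, between Hoxb5 and Hoxb4, also had a nearest locus, the Hoxb4 promoter locus at 1542 bp, that was open in all 7. That of Mir10b, its counterpart in HoxD, was the downstream Hoxd4 promoter locus at 1010 bp. It lost its peak with PD and with TSA in Hras.Myc, and gained one with PD and with TSA in Hras.E1A. The nearest loci to the miR-196 genes were open in 5 lists at Mir196a-1 (3190 bp), 3 at Mir196a-2 (578 bp) and 4 at Mir196b (297 bp), and Hdac7SA.Mef2d was among none of them. Mir615 had a locus at 7 bp, open in 4 lists, that gained a peak with PD in Hras.Myc. The sequences show that the miR-10 and miR-196 families each share a seed across clusters, in capitals, as given by RefSeq for GRCm38.p6.
miR-10a-5p: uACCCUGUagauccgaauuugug
miR-10b-5p: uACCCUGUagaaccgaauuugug
miR-196a-5p: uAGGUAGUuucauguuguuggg
miR-196b-5p: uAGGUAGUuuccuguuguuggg
miR-615-3p: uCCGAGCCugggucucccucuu

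Of the neighbouring genes, Evx1 beyond Hoxa13, Skap2, Hibadh, Mtx2 and Lnpk had a nearest locus open in all 7 lists. The homeobox gene Evx2, next to Hoxd13, had one 526 bp from its start that was open in 5 lists and absent from Hras.E1A and Hras.E1A with PD. That of Smug1, at 1282 bp, lacked a peak in Hras.Myc with TSA. Skap1, next to Hoxb1, had one 2361 bp from its start, open in Hras.E1A with and without PD and in both TSA lists.

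In the flanks, closing with PD was less frequent and opening more frequent than over all loci. In Hras.E1A, 71 of 252 flank loci closed (28.2%, 22.7 to 34.2) and in Hras.Myc 58 of 200 (29.0%, 22.8 to 35.8), both below the shares over all loci given above. In Hras.E1A 57 of 143 loci opened (39.9%, 31.8 to 48.4), against 14.9% of all loci, and in Hras.Myc 71 of 195 (36.4%, 29.7 to 43.6), against 18.4%. Flank loci opened in both lines numbered 28 (7.09%), against 2.74% of all loci, all of them distal. Of these 28, 14 were also open in Hdac7SA.Mef2d, as were 2556 of all 4062 loci opened with PD in both lines. The flank loci closed in both lines numbered 31 (7.85%), against 9.93%. AP-1 letters were in 34 of the 71 flank loci closed in Hras.E1A (47.9%) and in 4 of the 57 opened (7.02%), against 57.3% and 7.79% over all loci.

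The highest shares opened with PD were beside HoxD. There 19 of 31 loci opened in Hras.E1A (61.3%, 42.2 to 78.2) and 18 of 44 in Hras.Myc (40.9%, 26.3 to 56.8). In Hras.E1A the shares beside the other clusters were 35.7% at HoxA, 35.1% at HoxB and 30.3% at HoxC, and in Hras.Myc they were 40.0%, 28.6% and 36.2%. The intervals of the 4 clusters overlapped. The HoxD flank had 46 open loci in Hdac7SA.Mef2d, 36 in Hras.E1A, 43 with PD, 25 with TSA, 23 in Hras.Myc, 33 with PD and 28 with TSA. Beyond Hoxd13 it held 20 loci, or 4.00 per 100 kb, the sparsest of the 8 sides, and beyond Hoxd1 it held 47, or 9.40 per 100 kb. The densest was beyond Hoxc4, at 17.4 per 100 kb. Beyond Hoxd13, 8 of 11 loci opened in Hras.E1A and 6 of 15 in Hras.Myc, and beyond Hoxd1 it was 11 of 20 and 12 of 29.

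The 9 HoxD flank loci opened in both lines lay on both sides. Beyond Hoxd13 they were chr2:74177982-74178381, chr2:74220395-74220794, chr2:74380977-74381376 and chr2:74386349-74386748. Beyond Hoxd1 they were chr2:74901867-74902266, chr2:74933221-74933620, chr2:75034673-75035072, chr2:75153955-75154354 and chr2:75202578-75202977. Of these 9, 4 were open in Hdac7SA.Mef2d as well, a smaller share than the 2556 of 4062 over all loci. Beside HoxA, 9 flank loci opened in both lines, of which 3 lay in introns of Skap2 and were also open in Hdac7SA.Mef2d. HoxB had 8, of which 7 lay beyond Hoxb1, and HoxC had 2.

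**Figure D5:**
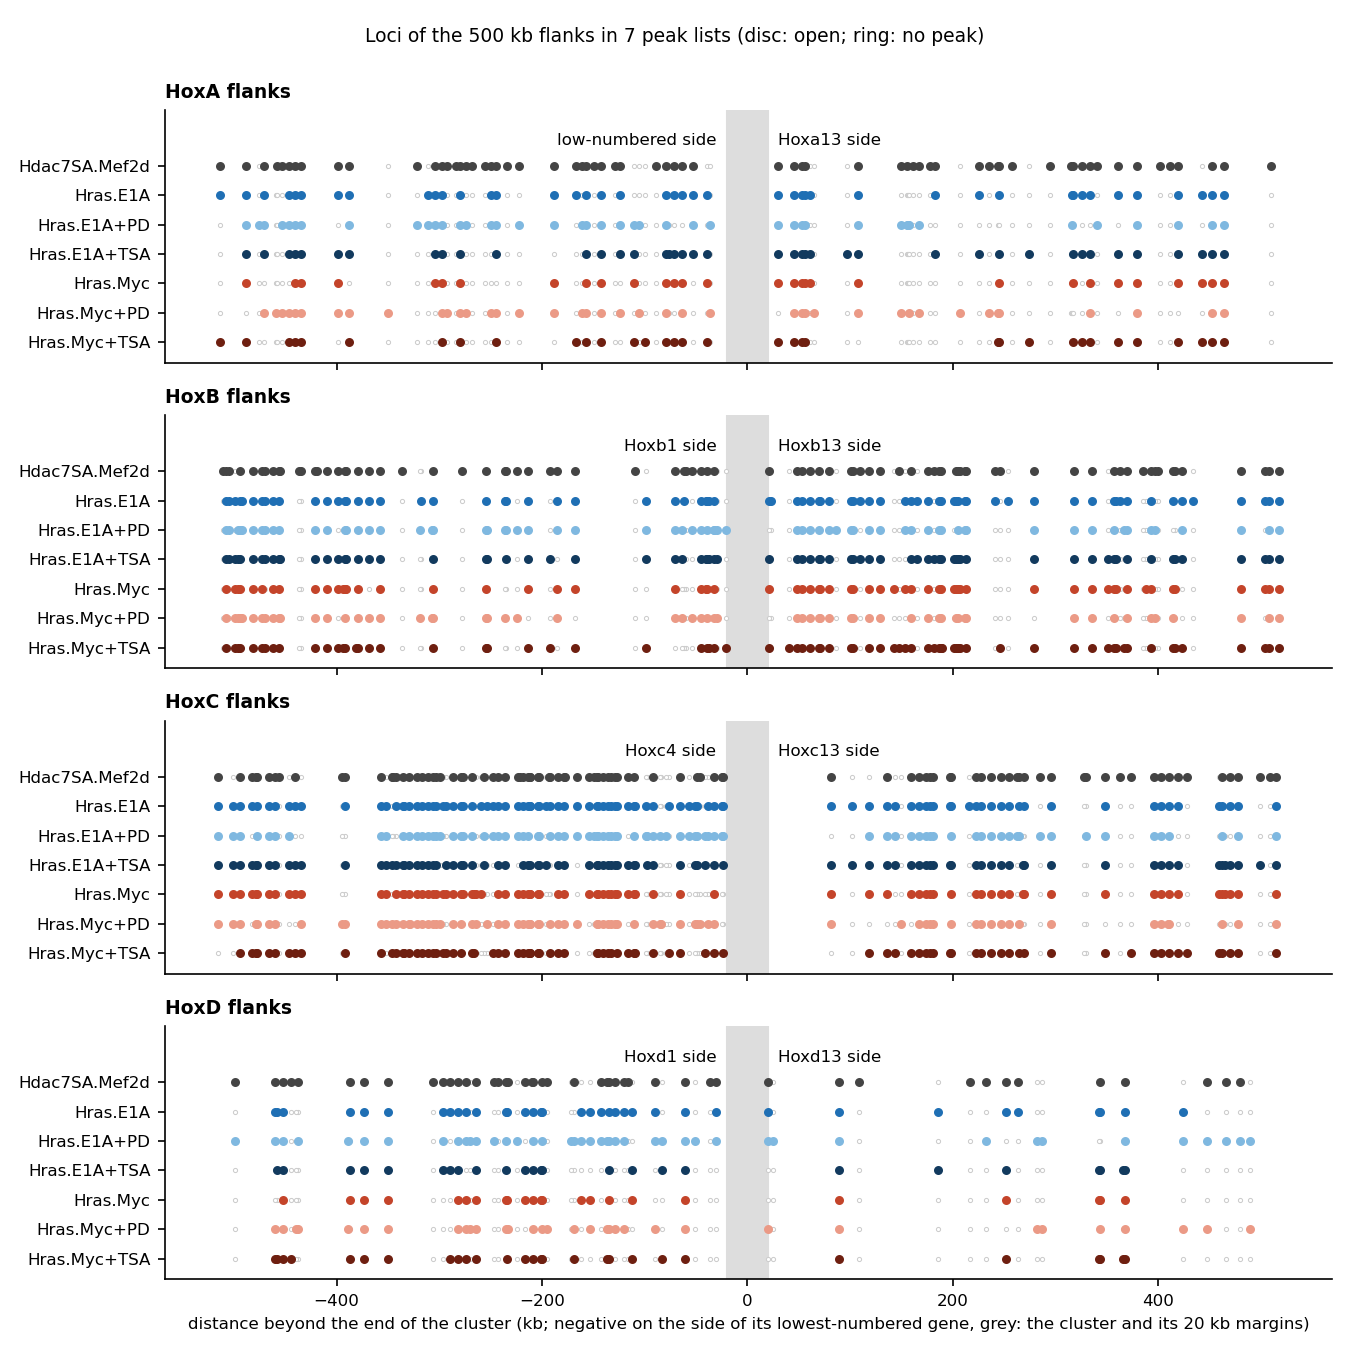
Loci of the 500 kb flanks at their distance in kb beyond the ends of each cluster (negative on the side of the lowest-numbered gene) in the 7 peak lists, with filled discs for open loci and rings for loci with no peak. The Hoxd13 side is the sparsest, with 20 loci, and the Hoxc4 side the densest, with 87.

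With TSA the flanks of the 4 clusters as a whole closed and opened at shares whose intervals include those over all loci. Intervals of 2 single flanks lay above, picked from the shares closed and opened beside 4 clusters in 2 lines. In Hras.E1A 46 of 252 loci closed (18.3%, 13.7 to 23.6) and 24 of 143 opened (16.8%, 11.1 to 23.9). In Hras.Myc 24 of 200 closed (12.0%, 7.84 to 17.3) and 44 of 195 opened (22.6%, 16.9 to 29.1). The HoxD flank of Hras.E1A closed at 13 of 36 loci (36.1%, 20.8 to 53.8), an interval above the 15.8% of all loci. In Hras.Myc 3 of 23 closed (interval 2.78 to 33.6), against 16.4%. The HoxB flank of Hras.Myc opened at 30.6% (18.3 to 45.4), above the 17.7% of all loci.

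The genes that control Hox clusters were mostly open at their promoters. Of 49 regulators, 42 were open in all 7 lists, against 57.7% of all protein-coding genes. These were 8 of 9 TALE partners of HOX proteins, 7 of 8 genes of Polycomb complex PRC2, 11 of 12 of PRC1, 8 of 9 of the trithorax group and demethylases, 5 of 8 upstream factors and retinoic acid genes and 3 of 3 architectural genes. Meis2, a HOX cofactor, the H3K27 demethylase gene Kdm6b and Cdx1 had no promoter peak in any list. Pcgf2, a PRC1 subunit, was open in Hdac7SA.Mef2d and in both PD lists and in no other. Cyp26a1, which breaks down retinoic acid, lost its promoter peak with PD and with TSA in Hras.Myc, and Phf19, a PRC2 accessory factor, lost it with TSA in that line. Cdx4 was open in Hras.E1A and Hras.E1A with TSA.

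Of the loci within 10000 bp of regulators, 26 of 124 closed with PD in Hras.E1A, against 38.9% of all loci, and 18 of 115 in Hras.Myc, against 38.4%. With PD 7 of 35 opened in Hras.E1A, against 14.9% of all loci, and 10 of 44 in Hras.Myc, against 18.4%. Over all loci, promoter loci closed less often with PD than distal ones. The shares were 6.98% against 46.3% for Hras.E1A, 7.16% against 46.9% for Hras.Myc. Loci near regulators were not split in this way, and the part of promoter loci in their shares was not tested. The PRC1 gene Phc2 had the largest number of changed loci. There 6 of 12 loci closed in Hras.E1A and 4 of 8 in Hras.Myc, while 2 of 3 and 2 of 7 opened. At Rara, a retinoic acid receptor gene, 3 of 9 and 3 of 11 closed with PD, and 5 of 6 opened with TSA in Hras.Myc. At Meis2, 3 of 4 loci closed with PD in Hras.E1A, and at Pknox1, another TALE gene, 3 of 5 closed with TSA in Hras.E1A.

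The lists were checked against markers of cell types. Of 14 fibroblast genes, 9 to 13 had open promoters in each list and 9 were open in all 7, with Lum at none. Of 4 pluripotency genes, Esrrb was open in all 7 lists and Pou5f1, Nanog and Zfp42 in none. Of 3 blood genes, Cd68 was open in 5 lists and Ptprc and Spi1 in none. Of 3 endothelial genes, Kdr was open in all 7, Pecam1 in 4 and Cdh5 in none. Of 5 epithelial genes 3 were open in all 7 lists, and of 3 neural genes 2 were. Promoters are often open without expression, and the part of other cells in the Hox results was not tested.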

How the data were processed

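ATAC-seq libraries of 7 groups of transformed MEFs were compared through the peak lists that the authors deposited, 1 list per group with replicates pooled. Per the study's methods, peaks were called after alignment, and the redefine_peaks function then brought back weak peaks at positions seen in other samples, so the lists are not independent. Bowtie2 2.4.5 and MACS2 2.2.7.1 are listed in the submitters' processing notes, with mm10 as the build. The sources used here do not give the way replicates were joined. Each deposited peak is 400 bp wide and carries a score from 1.20 upward, whose scale the authors do not state, and it was used only as a percentile within its own list. No read counts were given, so depth is unknown.

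Peaks on chromosomes 1 to 19, X and Y that overlapped by 1 bp were merged into loci with Python 3.11.15, pandas 2.3.3, numpy 2.4.6 and scipy 1.17.1, and figures were drawn with matplotlib 3.10.9. Loci were placed by their centre on GENCODE M21 (GRCm38, which is mm10), and 0 peaks lay past a chromosome end. Promoter loci lay within 1000 bp of a protein-coding start site of the basic set. Coordinates count from 1. Shares have exact Clopper-Pearson 95% intervals. No p-value is given, because each group has 1 list. Motif letters were sought on either strand of the middle 200 bp of a locus: TGANTCA (AP-1), GGAATG (TEAD), TGATTNAT (HOX-PBX), TTTATNG (posterior HOX), the CTCF core and DR5. MicroRNA sequences come from RefSeq.

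All members could be named, and all were counted, but 1 is not reported here by name. Members varying between lists, the non-coding genes and neighbours of the clusters, regulators that varied or had 3 or more changed loci, and loci changed with PD in both lines or open in Hdac7SA.Mef2d alone were named by rule. The members, gene lists and tests were chosen with earlier results of these data known. The split by CpG content and by score, the distal-only shares and the back-to-back letters were added after seeing the data.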

Additional observations from a re-analysis of the deposited data

Results flagged for a closer look

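Net changes, counted as opened minus closed loci, had opposite signs in the Hras lines in the windows with PD and in the flanks with PD and with TSA, and none of these differences was tested, since each line has 1 list per treatment. With PD the Hox windows had a net change of -4 loci in Hras.E1A, where 12 closed and 8 opened, and of 4 in Hras.Myc, where 14 closed and 18 opened. The Hox flanks had -14 and 13 in the same order. With TSA the flanks had -22 and 20, and within them the HoxD flank had -11 and 5. The windows with TSA had the same sign in both lines, -3 and -2. Over all loci the net change was -21311 and -10936 with PD, and -1485 and 3283 with TSA. Untreated Hras.E1A had more open loci than untreated Hras.Myc, both in the windows (99 and 87) and in the flanks (252 and 200), so fewer loci could open there and more could close. The part of this difference in the signs was not tested.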

How the results depend on the processing

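No paired analysis was possible because each list pools the replicates of its group, and for the same reason no replicate could be left out. Of 220 values recomputed under other settings, 176 moved by less than their counting interval, or for counts by less than 1.5 times, and 44 moved further. None did with a 50% cover of the locus, a tolerance of 500 bp, no merging, no TSA lists, margins of 0 or 50 kb, promoter distances of 500 or 2500 bp, or distal loci alone. The score mattered most. Without the lowest 25% of each list, open Hox promoters fell to 17 in Hdac7SA.Mef2d, 21 in Hras.E1A, 20 with PD, 19 in Hras.Myc, 19 with PD and 18 with TSA. Open window loci were then 42, 42 and 39 in Hdac7SA.Mef2d, Hras.E1A and Hras.E1A with PD, 47 with TSA, and 35, 37 and 42 in the Hras.Myc lists. Window loci closed with PD were 23.8% in Hras.E1A and 42.9% in Hras.Myc, against 42.9% and 43.0% of all loci, flank loci closed with TSA in Hras.Myc were 20%, and flank loci opened with PD in Hras.Myc were 28.3%. With every list cut to its 56774 best peaks, open promoters were 6 in Hdac7SA.Mef2d, 17 in Hras.E1A, 23 with TSA and 19 in Hras.Myc with TSA. Open window loci were 15 in Hdac7SA.Mef2d, 33 in Hras.E1A, 40 with TSA, 49 in Hras.Myc and 49 with TSA, and Hdac7SA.Mef2d had 131 open flank loci and 0 window loci absent from both untreated Hras lines. With these equal lists the window share closed with PD in Hras.E1A was 0.0% (36.2% over all loci) and with TSA 27.3%, and the window share opened with PD was 63.2% in Hras.E1A and 78.3% in Hras.Myc. The flank share opened with PD was 57.0% and 53.2% (31.5% and 31.7% over all loci), and that closed with TSA 23.7% and 18.3%. At distal loci that were not CpG-rich, chosen after seeing the data, flank loci closed with PD at 35.1% and 38.1%, window loci closed with PD in Hras.Myc at 27.3% and with TSA at 24.2% and 31.8%, and window loci opened with TSA in Hras.E1A at 7.69%. Flanks of 250 kb gave 24.5% closed with TSA in Hras.E1A, and flanks of 1000 kb gave 31.6% opened with PD in Hras.E1A. The window share closed with PD was below that over all loci, and the window and flank shares opened with PD above it, in 10 of 10 settings in both lines. The settings recount the same lists, so they are not independent. Without the lowest 25%, window loci opened with PD in Hras.E1A at 16.7%, against 15.6%, and the shares closed in Hras.Myc were nearly equal. The cut to 56774 peaks shortened the untreated Hras lists (81201 and 67738 peaks) more than the PD lists (59823 and 56774). That alone tends to lower shares closed and raise shares opened.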
